A study of Mus musculus with 8 samples.

Results

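The mouse Serpina1 genes encode alpha-1-antitrypsin, the serine protease inhibitor that hepatocytes secrete into plasma in large amounts. Their signals were read in livers from adult males of the ob/ob strain, which makes no functional leptin, after 12 days of leptin at 0, 12.5 or 25 ng/hr. The members are the probes whose symbol in the deposited table is Serpina1 followed by a single letter. These are 7 probes of 5 genes (Serpina1a, Serpina1b, Serpina1c, Serpina1d and Serpina1e), out of 25697 probes of 17860 genes. The family was chosen by the log2 difference between 25 and 0 ng/hr, since that of Serpina1e is the largest estimate of the series. The members' values are therefore a description with no test.

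A single Illumina BeadChip carried the 8 liver samples. Replicates 1 to 3 received 0 ng/hr and are the controls, replicates 4 and 5 received 12.5 ng/hr and replicates 6 to 8 received 25 ng/hr, and the ob/ob genotype is shared by all 3 groups. One label, the agent, calls the 25 ng/hr samples untreated and the 0 ng/hr samples leptin, against the title, source and dose labels that set the groups here, so every direction rests on title, source and dose. Doses lie in order along the chip, so position and dose cannot be told apart, and whether samples come from separate animals is not in the labels. Nor do they give an age beyond adult or the genetic background.

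In humans 1 gene, SERPINA1, encodes alpha-1-antitrypsin, which protects tissue from neutrophil elastase. In mice the gene was duplicated in tandem, the number of copies differs between strains, and the copies differ most in the loop that a protease attacks, so that they need not inhibit the same enzymes. In the NCBI gene table of assembly GRCm38.p6 the family lies on chromosome 12 in the order Serpina1f, Serpina1b, Serpina1d, Serpina1a, Serpina1c and Serpina1e. Pseudogenes stand between the copies, Serpina16 and Serpina6 lie on one side, and Serpina11, Serpina9 and Serpina12 on the other.

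The promoters of the 5 genes are shown because these stretches are nearly the same, while the signal of Serpina1e differed up to 72.8-fold between arrays and that of each other probe at most 1.59-fold. The stretches below are 136 bases each from RefSeq promoter windows (GRCm38.p6, all on the minus strand), aligned without gaps. In Serpina1e the capitals mark the run GTTAAT, which all 5 hold, and in the other genes they mark bases that differ from Serpina1e.
Serpina1e, chr12:103956910-103957045: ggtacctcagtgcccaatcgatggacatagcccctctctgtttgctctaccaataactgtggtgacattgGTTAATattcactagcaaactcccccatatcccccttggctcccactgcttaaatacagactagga
Serpina1a, chr12:103863575-103863710: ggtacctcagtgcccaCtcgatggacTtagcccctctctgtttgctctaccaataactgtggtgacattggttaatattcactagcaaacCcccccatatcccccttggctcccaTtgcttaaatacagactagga
Serpina1b, chr12:103738150-103738285: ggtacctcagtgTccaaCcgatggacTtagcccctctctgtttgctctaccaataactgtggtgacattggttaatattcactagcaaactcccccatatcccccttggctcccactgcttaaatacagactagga
Serpina1c, chr12:103904912-103905047: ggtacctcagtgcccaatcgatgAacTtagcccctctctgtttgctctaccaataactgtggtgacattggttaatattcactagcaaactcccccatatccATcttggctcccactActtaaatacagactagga
Serpina1d, chr12:103773584-103773719: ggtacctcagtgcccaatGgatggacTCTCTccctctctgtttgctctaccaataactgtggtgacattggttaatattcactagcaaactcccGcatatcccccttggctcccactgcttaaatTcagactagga

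GTTAAT begins at position -78 from the annotated start site in Serpina1e, -21 in Serpina1a, -26 in Serpina1b, -27 in Serpina1c and -16 in Serpina1d, so the shared stretch does not lie at the same distance from it. Serpina1e differed from Serpina1a at 4 of the 136 positions, from Serpina1b at 3, from Serpina1c at 5 and from Serpina1d at 8. A run of 59 bases around GTTAAT was the same in all 5 genes, and among 32851 promoter windows it was present in these 5 alone. GTTAAT, searched on both strands in RefSeq windows of 300 bases, was found once in each of the 5 genes and in 7.10% of all windows. TTAAATA, which resembles the box bound by the TBP protein, was found in 4 of the 5 (all but Serpina1d) and in 4.51% of windows. TTCNNNGAA, the letters of a STAT element, was found in none of the 5 and in 8.30% of windows. TTGCNNNAA was found in Serpina1a alone and in 9.56% of windows. It was searched as a C/EBP element but leaves 3 bases between TTGC and AA. It therefore does not show which windows hold such an element. In Serpina1a the matches to TTGCNNNAA and TTAAATA overlap, and no other matches do.

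Serpina1e ranked between places 6242 and 6683 of 25697 probes by signal without leptin, and in place 159 on 1 array with it. Its scaled intensity, the authors' linear signal after each array was brought to the same mean, was 195, 172 and 171 on the 3 control arrays. On the 12.5 ng/hr arrays it was 393 and 454. On the 25 ng/hr arrays it was 12472 in replicate 6, 3572 in replicate 7 and 404 in replicate 8. Every leptin array lay above every control, but replicate 8 lay between the 2 arrays of the lower dose.

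Against the control mean these values were 2.19- and 2.53-fold at 12.5 ng/hr and 69.5-, 19.9- and 2.25-fold at 25 ng/hr. The highest array was thus 30.9 times the lowest within the 25 ng/hr group. The authors' deposited table gives a ratio of group means of 30.6 for 25 over 0 ng/hr, the highest of all 25697 probes, where the next highest ratio is 5.88. In the same deposited table the ratio for 12.5 over 0 ng/hr is 2.36, in place 6 from the top, and that for 25 over 12.5 ng/hr is 13.0, again the highest.

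**Figure D1:**
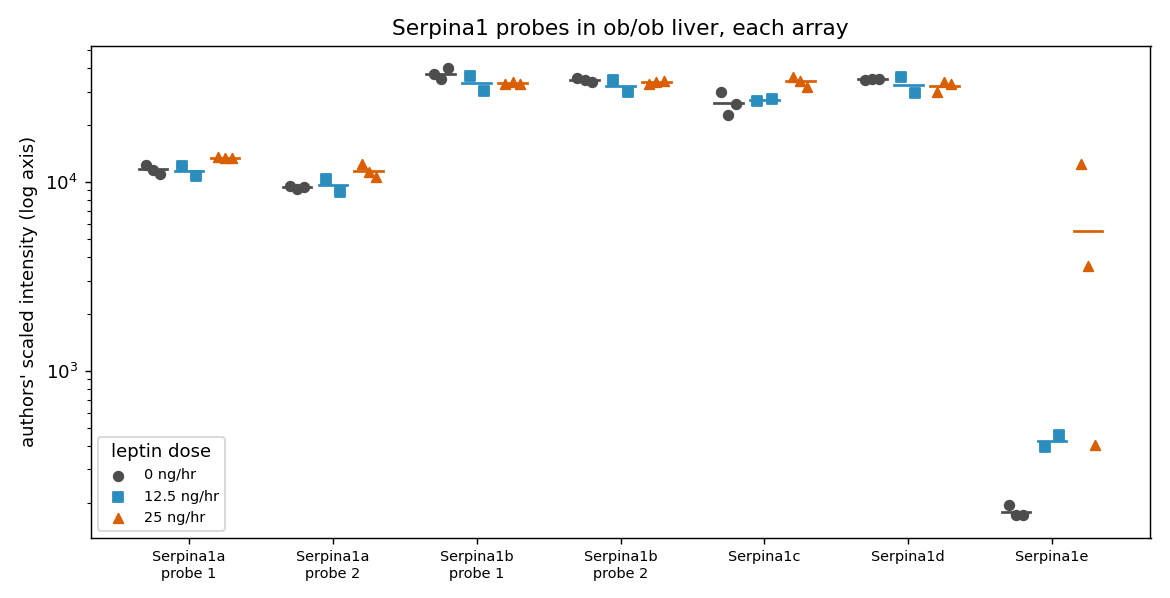
Authors' scaled intensity (log axis) of the 7 Serpina1 probes on each array, by leptin dose from left to right within a probe. Points are arrays and bars are group means. Serpina1e runs from 171 on a control to 12472 on a 25 ng/hr array, while the other 6 probes stay in a narrow band.

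On the background-corrected, quantile-normalized log2 scale, Serpina1e averaged 7.07 ± 0.12 in the 3 controls, 8.52 ± 0.13 in the 2 samples of the lower dose and 11.31 ± 2.57 in the 3 samples of the higher dose (mean ± SD). The log2 difference was 4.23 (SE 0.999) for 25 minus 0 ng/hr, an 18.8-fold ratio of geometric means, and 1.45 (SE 1.12) for 12.5 minus 0 ng/hr. For 25 minus 12.5 ng/hr it was 2.78 (SE 1.12), with overlapping groups. The SE pools the spread of all groups, so the spread at 25 ng/hr also widens the error of the 12.5 ng/hr value. Without replicate 6 the difference for 25 minus 0 ng/hr was 3.07, without replicate 7 it was 4.0 and without replicate 8 it was 5.61. For 25 minus 12.5 ng/hr it was 1.63 without replicate 6 and 4.16 without replicate 8.

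The estimate of 4.23 was the largest of 10141 features, followed by Igfbp2 with 3.01. The SD among the 25 ng/hr arrays ranked in place 2 of 10141, after that of Cyp2b13 (2.75), against a median SD of 0.14. Among the controls the SD of Serpina1e, 0.12, was below the median of 0.13. No Serpina1 gene was among the 90 features (0.887%; 0.621% higher and 0.266% lower) past an adjusted p of 0.05 for 25 minus 0 ng/hr in limma's test. Serpina1c and Serpina1e were under an unadjusted p of 0.05 there, as were 17.1% of all features. Since the choice of the family used this contrast, nothing is read from these counts.

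**Figure D2:**
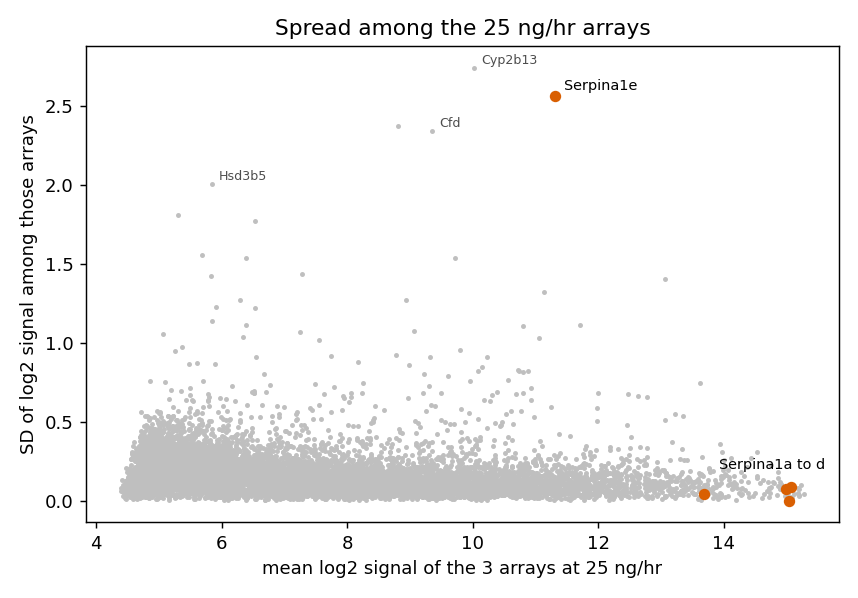
SD of the log2 signal among the 3 arrays at 25 ng/hr against their mean log2 signal, for 10141 features (grey) and the Serpina1 genes (orange, 1 probe per gene). Serpina1e has an SD of 2.57, and Serpina1a, Serpina1b, Serpina1c and Serpina1d lie at the bright end with an SD below 0.1.

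Serpina1b, Serpina1c and Serpina1d were close to the top of the range on every array. Their 4 probes ranked between place 4 and place 57 of 25697, and the 2 Serpina1a probes between places 141 and 262. Before scaling the brightest probe of an array reached 41079 to 44884 on the controls, 40652 to 41951 at 12.5 ng/hr and 35691 to 38549 at 25 ng/hr. Saturation of the brightest beads is not recorded in the table. In quantile normalization the value of such a bright probe is set by its place in the order. A Serpina1b probe (ILMN_1215859) thus had the same log2 signal, 15.04, on all 3 arrays at 25 ng/hr. The scaled intensities are therefore given for these genes. Probe sequences were not used here, and probes for near-identical copies can bind each other's transcripts, so the signal of one member may hold that of others.

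Serpina1c was higher at 25 ng/hr. Its scaled intensity was 29768, 22680 and 25928 on the controls, 26850 and 27343 at 12.5 ng/hr and 36007, 34174 and 31734 at 25 ng/hr. The 25 ng/hr arrays lay above all 5 others, and the 12.5 ng/hr arrays lay within the range of the controls. The ratio of group means was 1.30 for 25 over 0 ng/hr in the authors' deposited table, and the log2 difference was 0.42 (SE 0.12).

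Serpina1a was also higher at 25 ng/hr with both of its probes. Probe ILMN_1225699 had 12284, 11596 and 10995 on the controls, 12101 and 10694 at 12.5 ng/hr and 13510, 13421 and 13353 at 25 ng/hr. Probe ILMN_2777493 had 9544, 9181 and 9357 on the controls, 10384 and 8770 at 12.5 ng/hr and 12338, 11316 and 10630 at 25 ng/hr. With both probes the 25 ng/hr arrays stood above the other 5 on this scale. After quantile normalization the log2 differences from the controls were 0.19 (SE 0.10) and 0.29 (SE 0.11), and replicate 8 of probe ILMN_2777493 lay below 12.5 ng/hr replicate 4. The 12.5 ng/hr arrays overlapped the controls with both probes.

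Serpina1b and Serpina1d leaned the other way. Probe ILMN_1215859 of Serpina1b had 37279, 34758 and 39835 on the controls, 36064 and 30141 at 12.5 ng/hr and 32878, 33763 and 32794 at 25 ng/hr. Serpina1d had 34704, 34766 and 35081 on the controls, 35732 and 29460 at 12.5 ng/hr and 29747, 33556 and 32907 at 25 ng/hr. In both, the 25 ng/hr arrays were below the controls on this scale, with ratios of the authors' means of 0.889 and 0.920 in the deposited table. The 12.5 ng/hr arrays spanned more than the 25 ng/hr arrays. Ttr and Cyp2e1, bright hepatocyte markers, also had every 25 ng/hr array below the controls on this scale, while Apoa1 and Ass1 overlapped. After quantile normalization probe ILMN_1215859 differed from the controls by -0.11 (SE 0.09) on the log2 scale, with these groups still apart.

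The other Serpina1b probe, ILMN_2659680, did not separate the groups, with 35322, 34562 and 33885 on the controls, 34402 and 29987 at 12.5 ng/hr and 33089, 33880 and 34108 at 25 ng/hr. Its log2 difference for 25 minus 0 ng/hr was 0.03 (SE 0.09) after quantile normalization, -0.04 with the scaled intensities and -0.09 with median scaling, so it has no settled direction. Serpina1d had a difference of -0.05 (SE 0.09) after quantile normalization, with overlapping groups, against -0.12 with the scaled intensities and -0.17 with median scaling.

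Counted over probes on the scaled intensities, 25 ng/hr lay wholly above the controls for 4 of 7 probes, a state that 9.29% of all features had, and wholly below for 2 of 7, against 13.6% of features. For 12.5 against 0 ng/hr only the Serpina1e probe separated, on the higher side, where 17.1% of features did so and 12.1% separated on the lower side. After quantile normalization these shares of features were 14.9% and 13.9%. For 25 against 12.5 ng/hr both Serpina1a probes and Serpina1c separated, on the higher side (11.6% of features), and none on the lower side (20.6%). After quantile normalization 14.2% and 16.9% of features separated for these doses, and 11.2% and 11.7% for 25 against 0 ng/hr. On that scale Serpina1d overlapped for 25 against 0 ng/hr, and for 25 against 12.5 ng/hr Serpina1a probe ILMN_2777493 overlapped while Serpina1b probe ILMN_2659680 was higher. Members share sequence, so these counts are not counts of independent genes. The shares of features use only the brightest probe of a gene. Serpina1a and Serpina1b instead enter the member counts with both of their probes. The family was also chosen by the Serpina1e difference between 25 and 0 ng/hr. Nothing is therefore read from setting the member counts beside the shares of features.

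**Figure D3:**
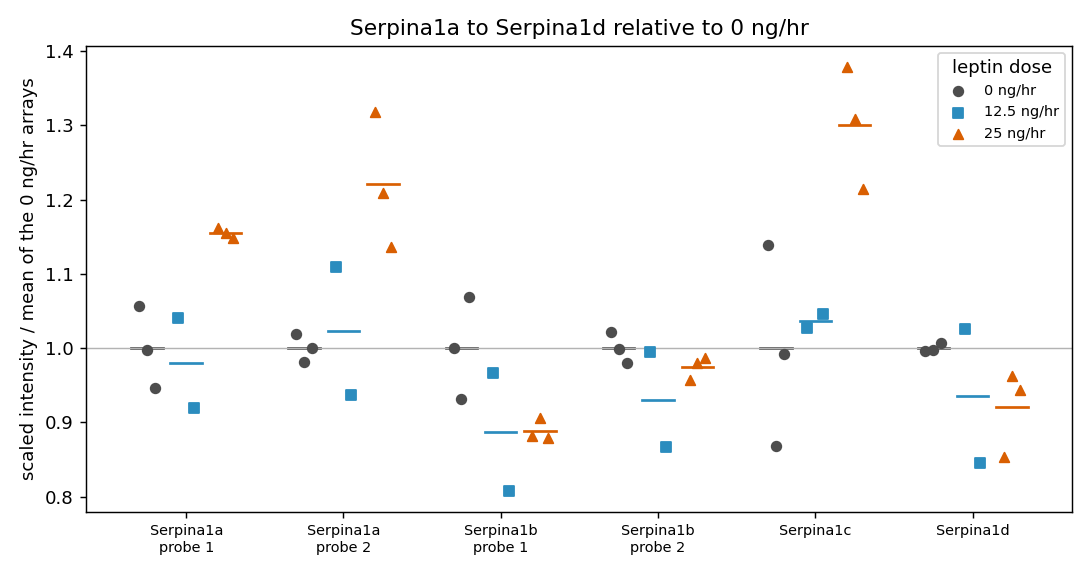
Scaled intensity relative to the mean of the 0 ng/hr arrays for the 6 probes of Serpina1a, Serpina1b, Serpina1c and Serpina1d, by leptin dose from left to right within a probe. Points are arrays and bars are group means. The 25 ng/hr arrays reach 1.38 for Serpina1c and 1.32 for a Serpina1a probe, and 0.854 for Serpina1d.

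The members differed in how they followed Serpina1e over the 8 arrays. Pearson's r with Serpina1e, a description over arrays that share their dose groups, was 0.82 for Serpina1c and 0.68 and 0.87 for the Serpina1a probes. It was -0.53 and 0.23 for the Serpina1b probes and -0.52 for Serpina1d. Leaving out replicates 6 and 7, the arrays farthest from the Serpina1e median, gave 0.55 for Serpina1c and 0.13 and 0.37 for Serpina1a. It gave -0.64 and -0.04 for the Serpina1b probes and -0.32 for Serpina1d.

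Among the other 10140 features, the 10 most like Serpina1e had r from 0.95 to 0.98, and from 0.54 to 0.97 without replicates 6 and 7. They were C6, a terminal complement component, Mup5, a major urinary protein gene, Lurap1l, the kinase gene Aatk, the ribosomal protein gene Rpl27a, Hes6, a transcriptional regulator of the Hes family, Rapgef4, which encodes a cAMP-activated exchange factor, Glo1, a glyoxalase, and 2 predicted genes named OTTMUSG00000000231 and OTTMUSG00000007485. C6 had log2 signals of 7.77, 7.75 and 7.76 on the controls, 8.58 and 8.23 at 12.5 ng/hr and 10.78, 9.72 and 8.88 at 25 ng/hr. Mup5 had 8.77, 8.45 and 8.79 on the controls, 9.83 and 9.68 at 12.5 ng/hr and 12.06, 11.13 and 9.997 at 25 ng/hr. As for Serpina1e, replicate 6 was the highest and replicate 8 the lowest of the 25 ng/hr arrays for both, but replicate 8 lay above the 12.5 ng/hr arrays.

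The 5 most opposite features had r from -0.98 to -0.96, and from -0.92 to -0.68 without replicates 6 and 7. Among them were Usp20, a ubiquitin protease gene, the apolipoprotein gene Apoa5, the MAP kinase gene Mapk3 and Vldlr, a lipoprotein receptor. Vldlr had log2 signals of 8.55, 8.42 and 8.19 on the controls, 8.08 and 7.90 at 12.5 ng/hr and 6.95, 7.54 and 8.16 at 25 ng/hr.

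**Figure D4:**
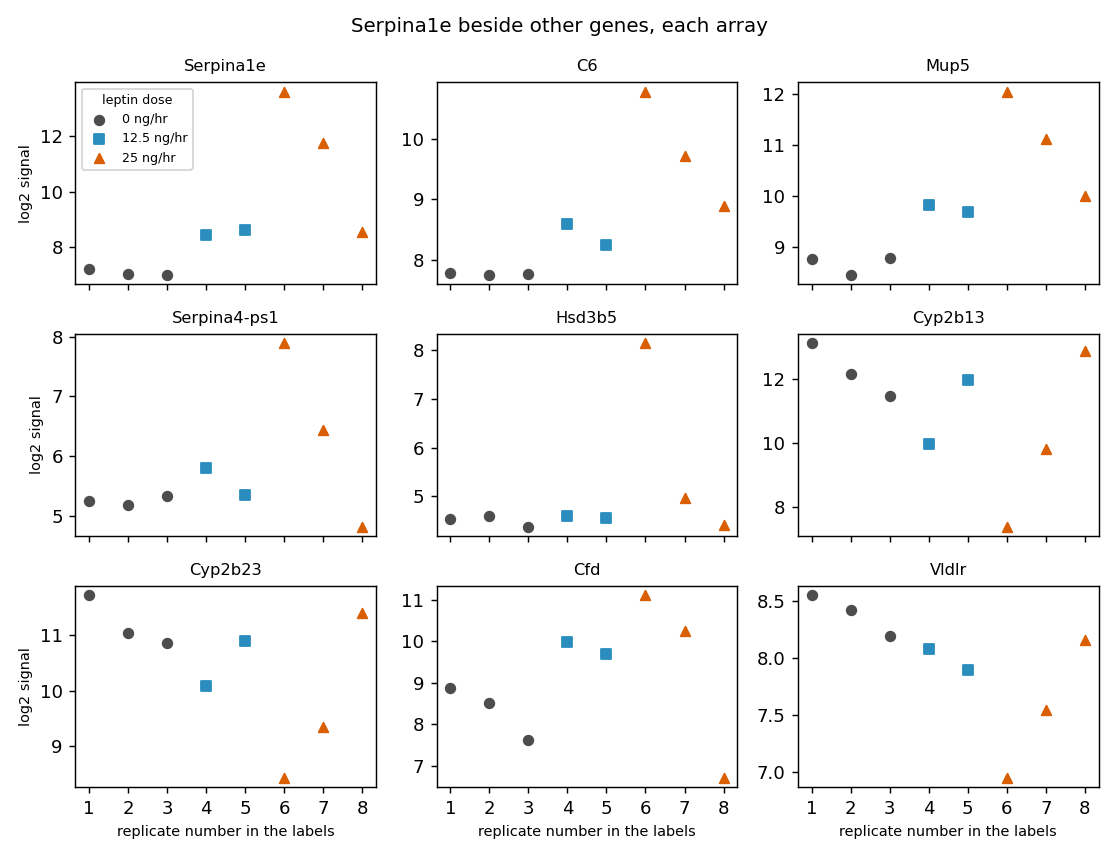
Log2 signal on each array of Serpina1e and 8 other genes, against the replicate number, with the leptin dose given by colour and marker. C6 and Mup5 follow Serpina1e, Vldlr runs opposite to it, and the other 5 genes, picked after their values were seen, are among the 10 features with the widest spread at 25 ng/hr. Of those 10 features, 8 have replicates 6 and 8 at the ends of that group, and Dmbt1 and Gpnmb, not drawn, have replicate 7 highest.

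Markers were used to check the tissue. Of 6 hepatocyte markers on the array, Apoa1, Ass1, Cyp2e1 and Ttr were above background on all 8 arrays, whereas the probes of Alb and Tat were above background on none. The summed scaled intensity of the 6 was 103200 to 110500 at 0 ng/hr, 103300 to 112600 at 12.5 ng/hr and 102700 to 108400 at 25 ng/hr. Kupffer cell and macrophage markers were above the controls at both doses, with sums over 9 genes of 2367 to 2535, 3267 to 3612 and 3424 to 3812 in the same order, where the ranges of the doses overlap. Of the 8 tested, 5 were higher at 25 than at 0 ng/hr in limma's test, where 0.621% of all features were, and Cd5l was above background on no array. Stellate cell and fibroblast markers had sums over 7 genes of 7574 to 12770, 11160 to 11270 and 6369 to 7911 in the same order, with a median log2 difference of -0.71 between 25 and 0 ng/hr and no gene called. Biliary markers had sums over 4 genes of 809.1 to 1374, 1783 to 2024 and 768.5 to 953.3. Of these, Spp1 had 1564 and 1845 at 12.5 ng/hr against 586.9 to 1163 on the controls, while Krt7 and Krt19 were not higher. Krt19 and Sox9 were above background on 1 and 2 of 8 arrays. Control replicate 1 stood apart in Acta2, the smooth muscle actin gene, with a scaled intensity of 4353 against 195 to 571 on the other arrays, and in Lep, with 171 against 65.8 to 85.1. Without this control the Serpina1e difference for 25 minus 0 ng/hr was 4.31. The part of these markers in the Serpina1 values was not tested. Neutrophil markers, of the cells whose elastase alpha-1-antitrypsin inhibits, had sums over 5 genes of 387.8 to 633.1, 535.7 to 697.9 and 427.5 to 612.8 in the same order, with Camp and Ngp above background on no array. In whole liver, fewer cells of a type and less RNA per cell cannot be told apart.

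Other genes around alpha-1-antitrypsin were read from 6 lists with 86 entries, of which 65 genes were tested. In limma's test over all 10141 features none of them passed for 25 minus 0 ng/hr (0.887% of features), 12.5 minus 0 ng/hr (0%, with 11.5% at an unadjusted p under 0.05) or 25 minus 12.5 ng/hr (0.424%). Of all features, 49.5%, 50.6% and 50% lay above 0 in these contrasts. The median log2 difference of all features was 0.00 in each of these contrasts.

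The other clade A serpins include the antichymotrypsin-like Serpina3 group, the protein Z inhibitor Serpina10 and the carrier proteins for corticosteroid (Serpina6) and thyroxine (Serpina7). Of 12 tested, 8 lay above 0 at 25 minus 0 ng/hr and 11 at 12.5 minus 0 ng/hr, with median log2 differences of 0.19 and 0.27. At 25 minus 0 ng/hr 5 had an unadjusted p under 0.05, all on the higher side, as did 17.1% of all features in either direction. Serpina3k had log2 signals of 5.51, 5.64 and 6.28 on the controls, 6.07 and 6.13 at 12.5 ng/hr and 7.71, 7.20 and 6.67 at 25 ng/hr. All 3 arrays at 25 ng/hr lay above the other 5, and the log2 difference from the controls was 1.38 (SE 0.27), with an adjusted p of 0.0595 in limma's test. Its adjusted p ran from 0.0263 to 0.152 over 16 alternatives and passed in 5, among them the authors' scaled intensities. In the 5 settings where it passed, the log2 difference was 0.93 without background correction and 0.90 with the scaled intensities. It was 1.38 with detection on all 8 arrays and under a trended prior, and 1.65 without replicate 8. Serpina3f (log2 0.94, SE 0.22), Serpina11 (log2 0.59, SE 0.21) and Serpina3g (log2 0.56, SE 0.21) had limma adjusted p-values of 0.0870, 0.199 and 0.222.

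The other protease inhibitors that liver secretes include antithrombin (Serpinc1), the C1 inhibitor (Serping1), the murinoglobulins and the inter-alpha-trypsin inhibitor chains. Of 17 tested, 13 lay above 0 at 25 minus 0 ng/hr (median 0.11 on the log2 scale), and 5 had an unadjusted p under 0.05, all on the higher side, against 17.1% of all features in either direction. Serping1 had log2 signals of 12.95, 12.86 and 12.90 on the controls, 13.12 and 13.01 at 12.5 ng/hr and 13.34, 13.29 and 13.25 at 25 ng/hr. The 3 groups did not overlap, and the difference between 25 and 0 ng/hr was 0.39 on the log2 scale (SE 0.09), at a limma adjusted p of 0.0848 that ran from 0.0233 to 0.239 over 16 alternatives. Mug2 (log2 0.35, SE 0.11), Tfpi, an inhibitor of tissue factor (log2 0.32, SE 0.12), and Itih4 (log2 0.25, SE 0.10) followed by size of p. Spink1, named for its size, had the widest difference of the list, at log2 -1.25 (SE 0.80) with overlapping groups. At 12.5 minus 0 ng/hr Spink1 had -1.82 (SE 0.89), with both 12.5 ng/hr arrays below the controls.

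Of the proteases that alpha-1-antitrypsin inhibits, 4 of 6 were tested. F11, coagulation factor XI, had log2 signals of 9.13, 9.74 and 9.73 on the controls, 10.56 and 10.16 at 12.5 ng/hr and 11.21, 10.96 and 10.12 at 25 ng/hr. Every leptin array lay above the controls, while replicate 8 lay below both 12.5 ng/hr arrays. The log2 difference was 1.23 (SE 0.28), at a limma adjusted p of 0.0870 that ran from 0.0240 to 0.245 over 16 alternatives. The neutrophil genes Prtn3, for proteinase 3 (log2 0.40, SE 0.20), and Elane, for neutrophil elastase (log2 -0.06, SE 0.15), were above background on 5 and 6 of 8 arrays. Without replicate 6 the Prtn3 difference was 0.17, and without replicate 7 that of Elane was 0.08. F2, prothrombin, had a difference of 0.05 (SE 0.10).

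Of 9 transcription factor genes tested, 3 lay above 0 and 6 below at 25 minus 0 ng/hr (median log2 difference -0.07). The forkhead gene Foxa3 had a difference of 0.69 (SE 0.21, adjusted p = 0.152) and the C/EBP family gene Cebpb of 0.36 (SE 0.12, adjusted p = 0.181), both in limma's test. Stat3, which transmits interleukin-6 and leptin signals, had -0.40 (SE 0.18) and Foxa2 -0.36 (SE 0.20). Without control replicate 2 the Stat3 difference was -0.19, and without replicate 6 that of Foxa2 was -0.21.

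Alpha-1-antitrypsin folds in the endoplasmic reticulum, leaves it through cargo receptors and is degraded from there when misfolded. Of 17 such genes tested, 10 lay above 0 and 7 below (median log2 difference 0.03). Pdia3, a disulfide isomerase, had the smallest p of them (log2 0.39, SE 0.09), at a limma adjusted p of 0.0875 that ran from 0.0273 to 0.254 over 16 alternatives. Man1b1, a mannosidase that marks glycoproteins for disposal (log2 -0.34, SE 0.10), the lectin gene Erlec1 (log2 -0.29, SE 0.11) and Sel1l, of the disposal complex (log2 -0.23, SE 0.11), lay below 0.

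Of 6 clearance receptor genes, 4 lay above 0 and 2 below (median log2 difference 0.03). Vldlr, named above, had a difference of -0.84 (SE 0.26), at a limma adjusted p of 0.164, and without replicate 6 it was -0.53. Lrp1, the receptor that clears serpin-protease complexes, had 0.31 (SE 0.15) and the asialoglycoprotein receptor gene Asgr1 -0.09 (SE 0.10).

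**Figure D5:**
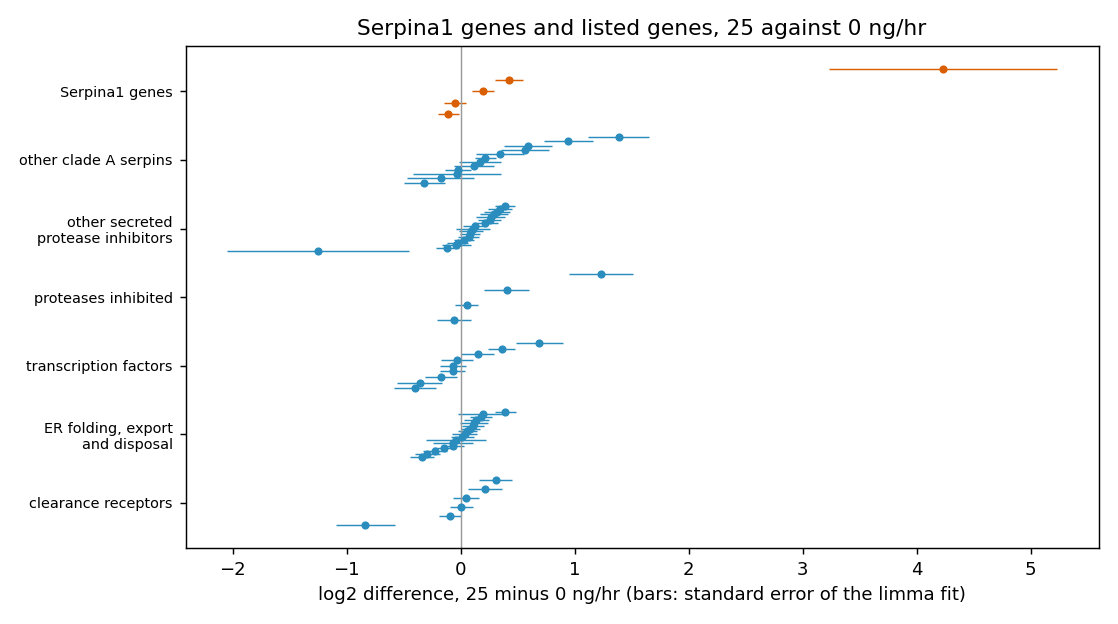
Log2 difference between 25 and 0 ng/hr for the 5 Serpina1 genes (orange, top row) and the 65 tested genes of 6 lists (blue). Bars are standard errors of the limma fit. Serpina1e stands at 4.23 with an SE of 0.999, and the listed genes lie between -1.25 and 1.38.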

How the data were processed

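The deposited table holds, per the file headers, an average signal per probe and array, which is an intensity not yet scaled, with its detection p-value. In the second deposited table the authors multiplied each array by 1 factor (0.927 to 1.08), giving scaled intensities with a mean of 493, and added group means and the ratio of these means. No source used here names the scanner software or a build. From the unscaled intensities, neqc (limma version 3.58.1, R version 4.3.3, offset 16) removed background, equalized quantiles and took log2. Probes with a detection p-value under 0.05 on 2 or more arrays were used, and the brightest probe of a gene was kept, which left 10141 features. SEs of members come from this fit, or from that of all 13760 detected probes where a second probe is given. The 8 arrays were fitted together in limma as 3 group means (lmFit, eBayes, Benjamini-Hochberg, threshold 0.05), tested on simulated data.

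Mean intensities were 456 to 532 per array, with 47.1% to 49.7% of probes above background. Correlations were 0.988 to 0.993 within groups and 0.981 to 0.993 between them. Unless the samples are separate animals, p-values cover only their own, possibly technical, spread, and the number of arrays limits precision. Members and lists were chosen with earlier results of these data known. From each list the genes past the threshold were named, or else the 4 with the smallest p, and the 10 features most like Serpina1e and the 5 most opposite by Pearson's r; a few genes that this names are left out of the text. Symbols were updated with the gene table of GRCm38.p6. Of 25697 probes, 900 kept the name in the file. Plots were made in Python version 3.11.15 with matplotlib version 3.10.9.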

Additional observations from a re-analysis of the deposited data

How the results depend on the processing

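No paired analysis was possible because the groups share no replicate number. The Serpina1e difference for 25 minus 0 ng/hr (4.23) was 3.07 to 5.61 when single arrays were left out, that for 12.5 minus 0 ng/hr (1.45) 1.36 to 1.54 and that for 25 minus 12.5 ng/hr (2.78) 1.63 to 4.16. It stayed above 0 with median scaling and with no background correction, and with the authors' scaled intensities (3.87 to 4.17 for 25 minus 0 ng/hr).

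The count of 90 features at 25 minus 0 ng/hr was 35 with median scaling, 192 with no background correction, 188 with the authors' scaled intensities, 206 under a trended prior and 15 with only the groups compared. It ran from 0 (without control replicate 2 or 25 ng/hr replicate 6) to 130 (without replicate 8). The count of 0 at 12.5 minus 0 ng/hr, where 1167 features had an unadjusted p under 0.05 in limma's test, was 9 without background correction, 10 with scaled intensities and 7 under a trended prior, and 0 to 2 without single arrays. The count of 43 at 25 minus 12.5 ng/hr was 77, 110 and 78 in these settings and 0 to 61 without single arrays.

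No listed gene passed at 25 minus 0 ng/hr, but 4 did without background correction and 4 with the authors' scaled intensities (F11, Pdia3, Serpina3k and Serping1 in both). With a trended prior 5 passed (the same and Serpina3f), with detection on all 8 arrays 1 (Serpina3k), and without single arrays 0 to 4 (F11, Foxa3, Serpina3k and Vldlr without replicate 8). The listed genes gave 0 calls at 12.5 minus 0 and at 25 minus 12.5 ng/hr in every alternative. The cause of these shifts was not tested.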

Other observations

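The features with the widest spread among the 25 ng/hr arrays, looked up after their values were seen, included Cyp2b13 and Hsd3b5, and no list was tested for them. Cyp2b13, a cytochrome gene more active in female liver, had log2 signals of 13.11, 12.14 and 11.45 on the controls, 9.96 and 11.94 at 12.5 ng/hr and 7.38, 9.81 and 12.87 at 25 ng/hr. Replicate 6, where Serpina1e was highest, was the lowest of the 8 arrays, and replicate 8 lay within the range of the controls. Hsd3b5, a steroid dehydrogenase gene of male liver, exceeded background in 2 of the 3 samples at 25 ng/hr and in none of the others, with log2 signals of 8.14 in replicate 6 and 4.98 and 4.42 in replicates 7 and 8.

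Serpina4-ps1, a transcribed pseudogene that lies beyond Serpina12 on chromosome 12, with Gm31271 between them, was also among these features. Its log2 signals were 5.25, 5.18 and 5.33 on the controls, 5.79 and 5.35 at 12.5 ng/hr and 7.89, 6.44 and 4.82 at 25 ng/hr. Replicate 6 was thus the highest of the 8 arrays, as for Serpina1e. The probe was above background on 2 of the 3 samples at 25 ng/hr, so the lowest of these values has no order. Serpina12, looked up with it, encodes the adipokine vaspin and lies nearer to Serpina1e. It had 9.81, 10.66 and 9.86 on the controls, 10.49 and 10.85 at 12.5 ng/hr and 10.82, 10.22 and 9.19 at 25 ng/hr, where the groups overlapped. Serpina11 is the gene next to Serpina1e. Its log2 signals were 7.10, 7.70 and 7.49 on the controls and 7.94 and 7.71 at 12.5 ng/hr. At 25 ng/hr they were 8.24, 8.23 and 7.59. Replicates 6 and 7 were thus the highest of the 8 arrays, but replicate 8 lay within the range of the controls.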
